A study of Mus musculus with 12 samples.

Results

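A set of 10 genes that mark the fields of the hippocampus were followed in RNA of hippocampus and prefrontal cortex after abdominal irradiation. The genes were C1ql2, Prox1 and Dsp for the dentate gyrus, Fibcd1, Spink8, Wfs1 and Pou3f1 for field CA1, Grp and Cpne7, which were placed in no single field here, and Zbtb20. They were taken by gene symbol, and all 10 were found among the 23183 symbols of the tables. Male C57BL/6 mice, an inbred strain, were given X-rays to the abdomen or left without irradiation, and 1 library was made per mouse and region. This gave 3 libraries each of control hippocampus, irradiated hippocampus, control prefrontal cortex and irradiated prefrontal cortex, 12 in all. The labels name no transgene and no further agent in any group. The library names of the irradiated mice carry a dose of 13 Gy. The brains were collected in the chronic phase. The sources used here give neither the time since irradiation nor the age of the mice.

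The hippocampus is a folded sheet in which granule cells of the dentate gyrus project to pyramidal cells of field CA3, and these project to CA1. Each field expresses its own set of genes in mouse, so a handful of transcripts can report which fields a dissected piece contains. C1ql2 encodes a secreted C1q-like protein released by mossy fibres, the axons of granule cells. Prox1 is a homeodomain factor needed for granule cell identity, and it is also made by some interneurons. Dsp encodes desmoplakin, which links desmosomes to intermediate filaments. Fibcd1 is a transmembrane receptor for acetylated sugars, Spink8 a Kazal-type protease inhibitor, Wfs1 a membrane protein of the endoplasmic reticulum and Pou3f1 a POU-domain transcription factor. Grp encodes gastrin-releasing peptide, a bombesin-like neuropeptide, and Cpne7 a calcium-dependent membrane-binding copine. Zbtb20 is a zinc finger repressor of hippocampal projection neurons and of astrocytes.

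The 250 bases before the annotated start were available for 6 of the 10 genes, in 7 entries of the RefSeq table for GRCm38.p6, the same assembly as mm10. Those of the 3 dentate genes and of Fibcd1 are shown. All 4 genes were more abundant in hippocampus than in prefrontal cortex, as was Zbtb20, whose window is not shown. Capitals mark E-boxes (CANNTG), the letters read by basic helix-loop-helix factors such as the Neurod proteins, and each sequence runs 5′ to 3′ on the strand of its gene.
C1ql2, chr1:120340332-120340581, plus strand: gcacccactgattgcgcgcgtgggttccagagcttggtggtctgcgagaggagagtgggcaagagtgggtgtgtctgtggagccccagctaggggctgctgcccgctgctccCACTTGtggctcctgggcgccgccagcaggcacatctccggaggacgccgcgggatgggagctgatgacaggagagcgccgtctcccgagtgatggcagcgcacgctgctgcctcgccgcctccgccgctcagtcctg
Prox1, chr1:190170828-190171077, minus strand, the upstream of its 2 entries: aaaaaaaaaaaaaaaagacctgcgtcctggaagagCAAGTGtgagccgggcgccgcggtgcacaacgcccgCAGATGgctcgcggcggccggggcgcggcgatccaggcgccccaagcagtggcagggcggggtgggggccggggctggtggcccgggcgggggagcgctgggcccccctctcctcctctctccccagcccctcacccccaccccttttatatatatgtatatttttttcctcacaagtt
Dsp, chr13:38151044-38151293, plus strand: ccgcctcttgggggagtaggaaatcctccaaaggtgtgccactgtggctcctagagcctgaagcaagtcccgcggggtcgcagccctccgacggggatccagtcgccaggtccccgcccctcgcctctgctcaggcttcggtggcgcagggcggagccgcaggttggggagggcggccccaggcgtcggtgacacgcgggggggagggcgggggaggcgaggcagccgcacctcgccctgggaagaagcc
Fibcd1, chr2:31846006-31846255, minus strand: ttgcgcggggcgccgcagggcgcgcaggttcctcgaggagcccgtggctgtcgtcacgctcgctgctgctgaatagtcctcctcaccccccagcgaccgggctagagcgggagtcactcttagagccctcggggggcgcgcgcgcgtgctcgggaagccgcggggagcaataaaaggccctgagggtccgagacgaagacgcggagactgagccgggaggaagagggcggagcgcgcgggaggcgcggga
C1ql2 held 1 E-box, this Prox1 entry held 2, and no match was found in the windows of Dsp and Fibcd1. In all, 4 of the 7 entries held an E-box, whose letters read the same on the other strand. An E-box was present in 66.22% of the 32851 windows of the same length in the table. The POU octamer (ATGCAAAT) and the cyclic AMP response element (TGACGTCA), searched on both strands, occurred in 1.6% and 1.55% of all windows and in none of the 7 entries. The 4 windows shown were 64.8% to 72.4% G and C, against a median of 52.4% over all windows. They held 20 to 34 CpG dinucleotides against a median of 6. Among the windows not shown, that of Wfs1 was 69.6% G and C with 23 CpG and the other Prox1 entry 56.0% with 11. That of Zbtb20, at 44.8% with 3, was below each median. These matches describe the letters only.

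Levels are in FPKM (fragments mapped to a gene, scaled to transcript length and to the mapped fragments of the library), which allows levels to be compared between genes. Estimated depth was 15.7 to 18.5 M (mega) fragments per library. The summed level of 11 choroid plexus genes was 66.1 FPKM in irradiated hippocampus 2 and 3159 to 5904 FPKM in the other 5 hippocampal libraries, so the dentate gene results and the dentate to CA1 balance, where that library stood highest, are also given without it. The 12 genes of cortical layer neurons summed to 158 to 171 FPKM in irradiated and 134 to 150 FPKM in control hippocampus, and to 257 to 295 FPKM in prefrontal cortex. The 9 striatal genes summed to 761 to 982 FPKM in the prefrontal cortex libraries and to 68.1 to 117 FPKM in those of hippocampus. No gene of the cortical or the striatal list was at 0 in a library.

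The first question was where the 10 genes stand in hippocampus against prefrontal cortex. In control mice 9 of 10 were higher in hippocampus (limma, adjusted p below the threshold of 0.05) and none was lower. Of all 12923 genes tested, 15.7% were called higher in hippocampus and 14.6% lower. In irradiated mice, which share no library with the control comparison, 9 of 10 were again called higher, against 13.9% of 12878 genes, and none lower, against 15.3%. The same 9 genes were those whose hippocampal libraries all lay above all prefrontal libraries, in control mice (23.7% of all genes) and in irradiated mice (21.4%). Wfs1 was the exception in each comparison. The 10 genes were taken as markers of hippocampal fields, with earlier results of these data known. The counts in each treatment therefore describe the set and are no independent test of it. The median log2 difference of the 10 genes was 2.13 in control and 2.37 in irradiated mice, and that of all genes tested was 0.01 and 0.00011. All log2 differences are on the log2(FPKM + 1) scale with their SE, and the p-values rest on the spread between libraries within a group. The main fit did not pair the regions of a mouse. A fit with the mouse number as a block changed no call of the 10 genes. In RNA of whole tissue, fewer cells of a type and less RNA per cell cannot be told apart.

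**Figure D1:**
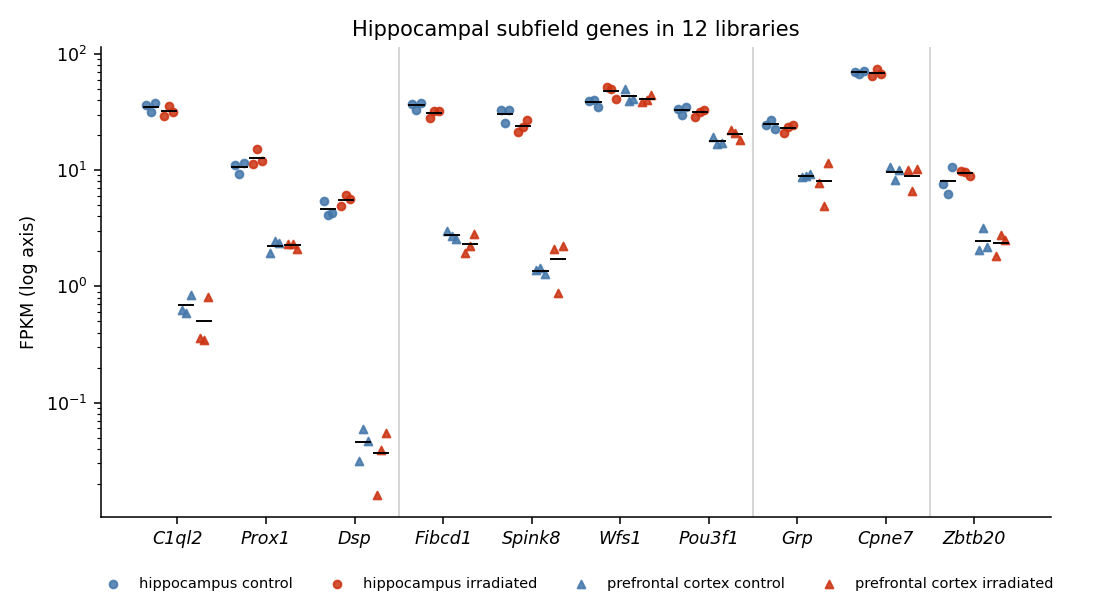
FPKM (log axis) of the 10 genes in each of the 12 libraries, with circles for hippocampus, triangles for prefrontal cortex, blue for control, red for irradiated and a bar at each group mean (n = 3). Circles lie above triangles for every gene except Wfs1, and Dsp is below 0.06 FPKM in all 6 prefrontal libraries.

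Among the dentate genes C1ql2 (ENSMUSG00000036907.9, chromosome 1, 120340582 to 120343174) had the largest log2 difference between regions on the log2(FPKM + 1) scale. Its level was 36.2, 31.4 and 38.1 FPKM in control hippocampus 1, 2 and 3 and 0.627, 0.591 and 0.846 FPKM in the prefrontal cortex of the same mice. In irradiated mice it was 29.5, 36.0 and 32.0 FPKM in hippocampus and 0.361, 0.347 and 0.806 FPKM in prefrontal cortex. The ratio of the regions within a mouse ran from 39.7 to 104 over the 6 mice, and all hippocampal values lay above all prefrontal ones. The size of the ratio is uncertain, since the prefrontal values rest on an estimated 12 to 31 fragments. The log2 difference in irradiated mice was 4.49 ± 0.13 (limma, adjusted p = 9.71e-07), the 3rd largest of 12878 genes in favour of hippocampus. In control mice the difference had the smallest p of all 12923 genes. Over the alternative settings the log2 difference reached 5.50 in control and 5.83 in irradiated mice.

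Prox1 (chromosome 1, 190118035 to 190170714) was less exclusive. It stood at 11.0, 9.35 and 11.5 FPKM in control hippocampus and at 1.94, 2.45 and 2.35 FPKM in control prefrontal cortex. Irradiated mice had 11.3, 15.2 and 12.1 FPKM in hippocampus and 2.32, 2.32 and 2.11 FPKM in prefrontal cortex. The within-mouse ratio was 3.82 to 6.57, and the log2 differences were 1.84 ± 0.10 in control and 2.08 ± 0.11 in irradiated mice (limma, adjusted p = 2.8e-06 and 1.1e-05). Prox1 overlaps 2 antisense genes, among them Prox1os, and reads of the opposite strand may be counted with it, since the use of the strand in counting was not stated.

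Dsp (chromosome 13, 38151294 to 38198577) had the lowest level of the 10 genes in hippocampus and was close to absent from prefrontal cortex. Its hippocampal values were 5.45, 4.13 and 4.27 FPKM in control and 4.89, 6.11 and 5.59 FPKM in irradiated mice. The prefrontal values, 0.0315, 0.0591 and 0.0466 FPKM in control and 0.0159, 0.0388 and 0.0548 FPKM in irradiated mice, correspond to an estimated 3 to 9 fragments of its longest transcript. The log2 differences were 2.42 ± 0.12 and 2.65 ± 0.10 (limma, adjusted p = 1.04e-06 and 3.1e-06), and they depended on the pseudocount, reaching 5.01 and 5.37 with 0.1 in place of 1. No ratio is given because so few fragments stand behind the lower value. Of 8 other desmosomal genes, 3 passed the filter on low values. Pkp2, the desmosomal plaque protein plakophilin 2, was higher in control hippocampus with 9.91 ± 1.17 against 1.60 ± 0.38 FPKM (SD, n = 3). Pkp4 was higher by 0.51 on the log2 scale, and Jup, plakoglobin, was lower with -0.56.

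The 4 CA1 genes split into a pair that was nearly restricted to hippocampus and a pair that was also abundant in the prefrontal libraries. Those libraries also held the striatal genes given above, whose part in these levels was not tested. Fibcd1 (chromosome 2, 31813290 to 31846005) stood at 37.4, 33.0 and 38.0 FPKM in control hippocampus and at 28.3, 32.2 and 32.1 FPKM in irradiated hippocampus. Prefrontal cortex held 2.98, 2.74 and 2.55 FPKM in the controls and 1.93, 2.21 and 2.80 FPKM after irradiation. Its within-mouse ratio was the most even among the genes with ratios above 10, from 11.5 to 14.9. The log2 difference in irradiated mice was 3.27 ± 0.11 (limma, adjusted p = 1.29e-06).

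Spink8 (chromosome 9, 109812280 to 109826633) was measured at 33.1, 25.5 and 32.7 FPKM in control and 21.2, 23.6 and 27.0 FPKM in irradiated hippocampus. In prefrontal cortex it was 1.38, 1.44 and 1.27 FPKM in control and 2.10, 0.870 and 2.20 FPKM in irradiated mice. The ratio within a mouse was 10.05 to 27.1, and the highest ratio belonged to irradiated mouse 2, which also had the lowest prefrontal value. Its log2 difference in irradiated mice was 3.23 ± 0.20 (limma, adjusted p = 2.34e-05). The prefrontal values rest on an estimated 12 to 30 fragments of a short transcript of 768 bases.

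Pou3f1 (chromosome 4, 124656807 to 124660655) was higher in hippocampus in all 6 mice, with a within-mouse ratio of 1.30 to 2.07. Its levels were 33.7, 30.0 and 35.2 FPKM in control and 28.9, 31.9 and 33.2 FPKM in irradiated hippocampus. Prefrontal cortex held 19.3, 16.9 and 17.0 FPKM in control and 22.2, 20.8 and 18.2 FPKM in irradiated mice. The log2 differences of 0.86 ± 0.08 and 0.60 ± 0.08 passed limma's test (adjusted p = 6.11e-05 and 0.00148). An antisense gene lies across this single-exon gene.

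Wfs1 (chromosome 5, 36966104 to 36989205) did not separate the regions. It stood at 39.3, 40.5 and 35.1 FPKM in control hippocampus and at 49.6, 39.5 and 40.9 FPKM in control prefrontal cortex. The irradiated mice had 52.3, 50.3 and 40.7 FPKM in hippocampus and 38.7, 40.4 and 44.3 FPKM in prefrontal cortex. Hippocampus was the higher region in 3 of 6 mice, and the libraries of the regions overlapped in each treatment. The log2 differences were -0.17 (95% interval -0.38 to 0.04, limma adjusted p = 0.217) in control and 0.20 (-0.03 to 0.43, adjusted p = 0.167) in irradiated mice. Without irradiated hippocampus 3 the latter was 0.31 and passed (adjusted p = 0.0265).

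Cpne7 (chromosome 8, 123117374 to 123135182) had the highest hippocampal level of the 10 genes. It stood at 70.3, 66.8 and 71.7 FPKM in control and 64.8, 74.6 and 67.4 FPKM in irradiated hippocampus. In prefrontal cortex it was 10.7, 8.27 and 10.1 FPKM in control and 9.98, 6.66 and 10.1 FPKM in irradiated mice. The log2 differences were 2.73 ± 0.09 and 2.84 ± 0.14 (limma, adjusted p = 2.17e-07 and 8.47e-06). Cpne7 overlaps 2 genes on its own strand, the protein-coding Gm20388 and Mir7080, so its FPKM depends on how fragments were assigned. Of the 8 other copine genes, 5 were higher and 2 lower in control hippocampus (15.7% and 14.6% of all genes). Cpne6, a copine of hippocampal neurons, reached 193 ± 13.2 against 59.0 ± 7.12 FPKM. Cpne5 and Cpne9 were the lower ones, with log2 differences of -2.26 and -1.61.

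Grp (chromosome 18, 65872820 to 65886596) stood at 24.6, 27.1 and 22.7 FPKM in control and 20.9, 23.3 and 24.4 FPKM in irradiated hippocampus. Prefrontal cortex had 8.70, 8.85 and 9.29 FPKM in control mice and a wider 7.80, 4.95 and 11.6 FPKM in irradiated mice. The regions did not overlap, and the log2 differences were 1.37 ± 0.08 and 1.45 ± 0.23 (limma, adjusted p = 3.1e-06 and 0.00261). An antisense gene overlaps Grp. The related peptide gene Nmb stood at 20.0 ± 15.4 FPKM in control hippocampus and the receptor gene Nmbr at 1.06 ± 0.37 FPKM (SD, n = 3), while Grpr, the receptor of Grp, did not pass the filter.

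Zbtb20 (chromosome 16, 42875881 to 43642602) varied most of the 10 genes between control hippocampi relative to its mean, with 7.54, 6.26 and 10.6 FPKM. Irradiated hippocampus held 9.84, 9.67 and 8.86 FPKM. Prefrontal cortex held 2.06, 3.15 and 2.18 FPKM in control and 1.81, 2.76 and 2.49 FPKM in irradiated mice. The within-mouse ratio was 1.99 to 5.43, and the log2 differences were 1.38 ± 0.18 and 1.65 ± 0.11 (limma, adjusted p = 0.000362 and 4.04e-05). The 8 astrocyte genes, whose cells also express Zbtb20, summed to 1331 to 1376 FPKM in control hippocampus and 977 to 1071 FPKM in control prefrontal cortex. Their part in the difference was not tested. Zbtb20 has 21 annotated transcripts and 9 genes within its span, so its FPKM depends on how fragments were assigned.

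**Figure D2:**
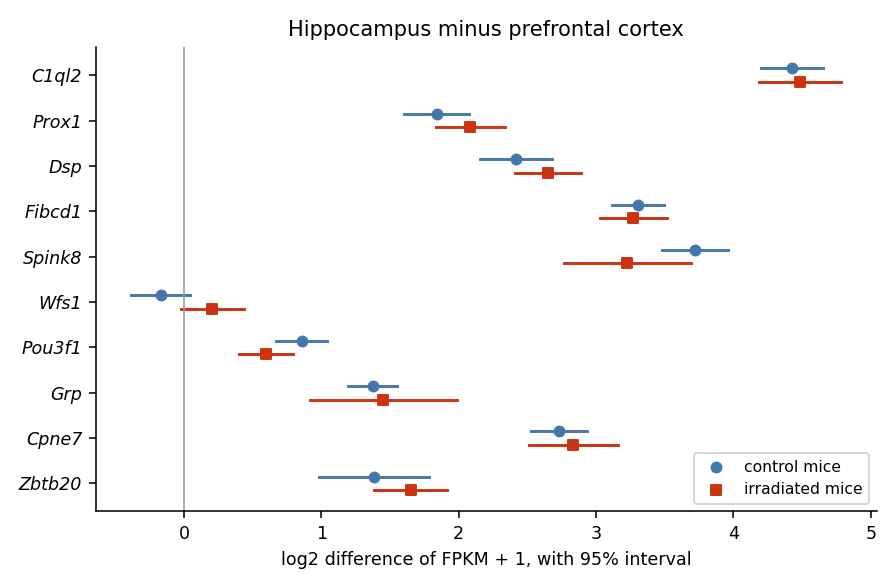
Log2 difference of FPKM + 1, hippocampus minus prefrontal cortex, for each gene in control mice (blue circles) and irradiated mice (red squares) with limma's 95% interval. C1ql2 is farthest from 0 in each treatment at 4.42 and 4.49, and the intervals of Wfs1 include 0.

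In control hippocampus the order of levels was Cpne7, Wfs1, Fibcd1, C1ql2, Pou3f1, Spink8, Grp, Prox1, Zbtb20 and Dsp, from 69.6 to 4.62 FPKM. Each neighbour from Wfs1 (38.3 ± 2.87) down to Grp (24.8 ± 2.20) overlapped with the next in its libraries (SD, n = 3), and so did Prox1 with Zbtb20. Cpne7 at the top and Dsp at the bottom did not overlap with their neighbour, and Grp did not overlap with Prox1. A different order held in control prefrontal cortex, where Wfs1 (43.3 FPKM) and Pou3f1 (17.7 FPKM) led, followed by Cpne7 (9.69 FPKM) and Grp (8.95 FPKM), whose libraries overlapped.

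Genes with the most similar pattern over the 12 libraries were found by the root mean square difference of log2(FPKM + 1) after centring each gene. Fibcd1 and Spink8 lay at 0.25 from each other, and Cabp7, a neuronal calcium-binding protein, was the nearest gene to Fibcd1 at 0.24. The gene nearest to C1ql2 was Spink8 at 0.54. Pkp2, the plakophilin named above, was nearest to Prox1 at 0.14, and Lhx9, a LIM homeodomain factor, to Dsp at 0.17. Pcdh20, a protocadherin, was nearest to Cpne7 at 0.19, where Dsp was in place 3 at 0.23, Hs3st4, a heparan sulfate sulfotransferase, to Pou3f1 at 0.07 and Slc9a2, a sodium-proton exchanger, to Zbtb20 at 0.15. Kctd4 was nearest to Grp at 0.18. All these patterns are dominated by the difference between regions, apart from that of Wfs1. Wfs1 was nearest to Rbm4b, an RNA-binding protein, at 0.09, and Pou3f1 was the nearest of the other 9 genes to Wfs1, at 0.43.

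Other genes of the subfields were called in each direction. Of 39 listed symbols, 38 were in the tables and 36 were tested. In control mice 22 of these were higher and 7 lower in hippocampus (15.7% and 14.6% of all genes), with a median of 0.68. In irradiated mice 24 were higher and 6 lower (13.9% and 15.3% of all genes), with a median of 0.69. The counts by field below are for control mice and stand against the same shares of all genes in control mice. Among 14 dentate genes 7 were higher and 3 lower, among them Lct, the lactase gene, with 2.24, while Calb1, calbindin, and Plk5 were lower with -0.33 and -0.64. Among 8 CA1 genes 5 were higher and 1 lower. Lefty1, a Nodal antagonist, was higher by 2.25. Dcn, higher by 2.29, is also a gene of meningeal fibroblasts. Of the 5 tested CA2 genes 3 were higher, among them the neurotrophin Ntf3 (1.51) and the adhesion protein Amigo2 (1.37), and Pcp4, a calmodulin regulator, was lower (-1.38). For CA3 and mossy cells 7 of 9 were higher, with the deiodinase Iyd at 1.41, the kainate receptor subunit Grik4 at 0.93 and calretinin, Calb2, at 1.13. Coch was lower with -2.33. The E-box factors Neurod6, Neurod1 and Neurod2 were higher by 1.56, 0.88 and 0.64.

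The second question was whether abdominal irradiation went with other levels of the subfield genes in hippocampus. None of the 10 passed limma's test over 12947 genes, and 0% of all genes did. At an unadjusted p under 0.05 there were 3 of 10, Fibcd1, Spink8 and Wfs1, against 10.5% of all genes. That count was 1 without control hippocampus 3, 2 without control hippocampus 1 or irradiated hippocampus 1, and 4 with equal library totals. Over all genes the numbers in these settings were 1998 of 12950, 580 of 12950, 774 of 12946 and 1681 of 12935. The main fit had 1361 of 12947. The control and irradiated libraries did not overlap for Fibcd1, which was lower (8.16% of all genes), and for Wfs1, which was higher (7.41%). The median log2 difference was -0.04, with 4 positive and 6 negative, against -0.01 over all genes.

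The CA1 genes did not share a direction. Fibcd1 was 30.8 ± 2.23 FPKM after irradiation against 36.1 ± 2.74 FPKM in control hippocampus (SD, n = 3), a log2 difference of -0.22 with a 95% interval from -0.40 to -0.05 (limma, adjusted p = 0.475, and 0.261 to 0.922 over the alternative settings). Every irradiated library was below every control library, with 32.2 FPKM as the highest irradiated and 33.0 FPKM as the lowest control value. Spink8 was 23.9 ± 2.93 against 30.4 ± 4.29 FPKM, a difference of -0.33 (-0.61 to -0.06, adjusted p = 0.475). Its control hippocampus 2, at 25.5 FPKM, lay within the irradiated range. Wfs1 was 47.8 ± 6.18 against 38.3 ± 2.87 FPKM, a difference of 0.31 (0.08 to 0.54, adjusted p = 0.475). The lowest irradiated value, 40.7 FPKM, stood just above the highest control value of 40.5 FPKM. Pou3f1 was 31.3 ± 2.18 against 33.0 ± 2.70 FPKM, with a difference of -0.07 (-0.25 to 0.11) that was 0.01 when libraries were scaled to equal totals.

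The dentate genes were not uniform either. C1ql2 was 32.5 ± 3.26 against 35.3 ± 3.47 FPKM, with a difference of -0.11 (-0.33 to 0.10). Prox1 was 12.9 ± 2.09 against 10.6 ± 1.13 FPKM, 0.25 (-0.02 to 0.52), and Dsp 5.53 ± 0.61 against 4.62 ± 0.72 FPKM, 0.22 (-0.04 to 0.48). The limma adjusted p of the 3 genes lay between 0.497 and 0.625, and the groups overlapped for each. Irradiated hippocampus 2, the library low in choroid plexus genes, had the highest Prox1 and Dsp values of the 6 hippocampal libraries and the highest C1ql2 value of the irradiated ones. Without it, the difference of C1ql2 was -0.19, that of Prox1 was 0.13 and that of Dsp 0.16.

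Grp, Cpne7 and Zbtb20 had differences of -0.11 (-0.30 to 0.08), -0.02 (-0.16 to 0.13) and 0.22 (-0.14 to 0.58). Their groups overlapped, and the limma adjusted p was 0.591, 0.939 and 0.582. The value of Zbtb20 turned on single control libraries, being 0.41 without control hippocampus 3 and 0.069 without control hippocampus 2. That of Grp ran from -0.17 without control hippocampus 3 to -0.05 without control hippocampus 2. Cpne7 had the narrowest interval of the 10 genes, and its sign was positive at 0.07 with equal library totals.

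**Figure D3:**
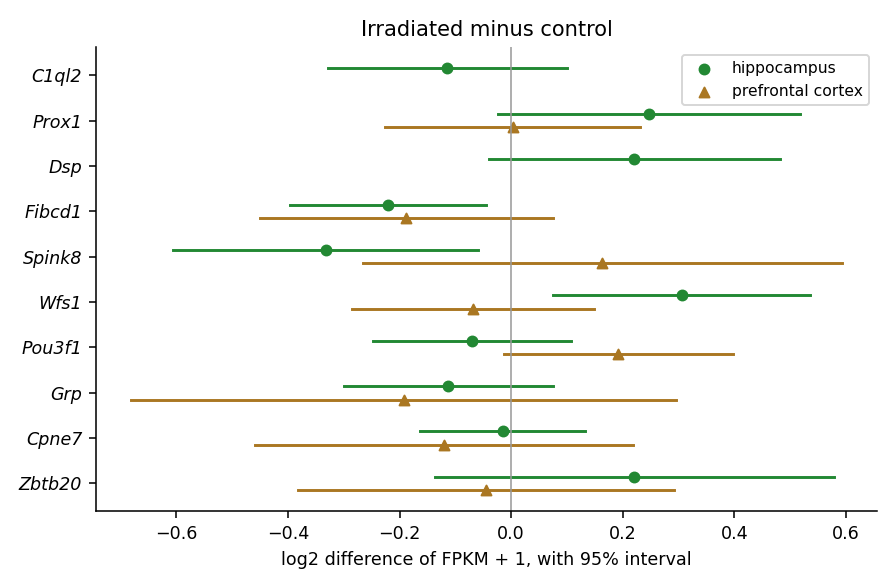
Log2 difference of FPKM + 1, irradiated minus control, in hippocampus (green circles) and prefrontal cortex (brown triangles), with limma's 95% interval. The intervals of Fibcd1 and Spink8 lie below 0 and that of Wfs1 above 0 in hippocampus, before adjustment over all genes, and C1ql2 and Dsp were not tested in prefrontal cortex.

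The balance of the dentate genes against the CA1 genes was described in each dissection as a difference of mean log2(FPKM + 1) values. The mean of Fibcd1, Spink8, Wfs1 and Pou3f1 was subtracted from that of C1ql2, Prox1 and Dsp. Wfs1 and Pou3f1 were also abundant in prefrontal cortex, at 43.3 and 17.7 FPKM in control mice. The balance is therefore not specific to the fields of the hippocampus, and the part of other tissue in it was not tested. In prefrontal cortex its mean was -2.37 in control and -2.46 in irradiated mice. In hippocampus the balance was -1.37, -1.45 and -1.40 in control mice 1, 2 and 3 and -1.29, -1.08 and -1.26 in irradiated mice. The irradiated libraries were all above the control libraries, by 0.20 in the mean, and by 0.13 without irradiated hippocampus 2. With the log2 ratio of summed FPKM, which the abundant genes dominate, the values were -1.44, -1.52 and -1.39 in control and -1.52, -1.27 and -1.42 in irradiated mice. These overlapped, and the difference of the means was 0.05. The other dentate and CA1 genes did not show a rise of dentate over CA1 genes. Their median log2 difference, irradiated minus control in hippocampus, was 0.06 in 14 dentate and 0.13 in 8 CA1 genes. No test of the balance is given, since the genes were chosen with results of these libraries known.

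**Figure D4:**
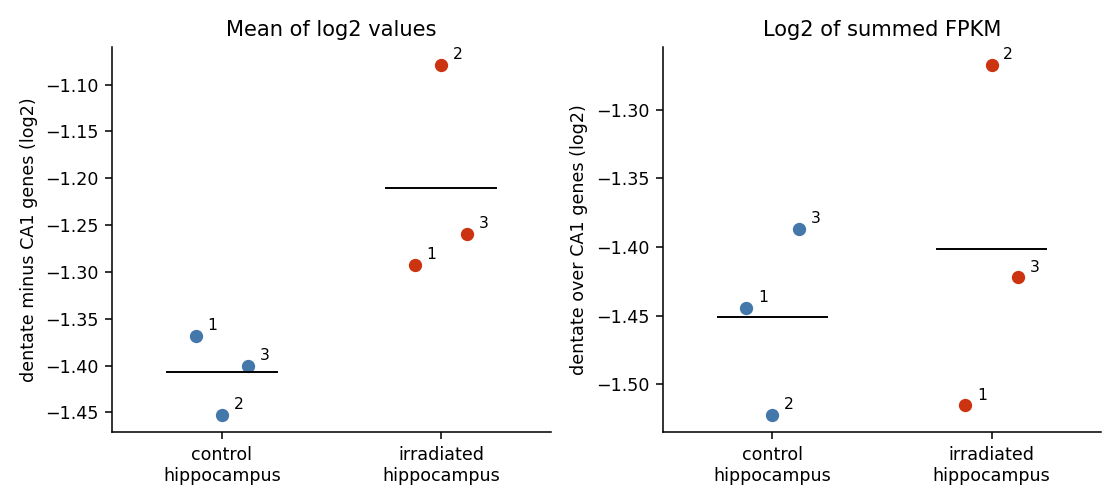
Dentate minus CA1 genes in each hippocampal library, as the difference of mean log2 values (left) and as the log2 ratio of summed FPKM (right), with the mouse number beside each point and a bar at the group mean (n = 3). The groups are apart on the left, from -1.45 to -1.37 against -1.29 to -1.08, and overlap on the right.

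The higher cortical layer sum in irradiated hippocampus stood beside these values. Of the 12 genes of that list, 8 were called lower and 3 higher in hippocampus than in prefrontal cortex in each treatment. Over all genes the shares were 14.6% and 15.7% in control and 15.3% and 13.9% in irradiated mice. The sum is therefore not specific to cortex. The sum in irradiated hippocampus did not overlap with that of the control libraries. None of the 11 genes of that list that were tested passed limma's test, and 0% of all genes did. Of these 11 genes, 1 had an unadjusted p under 0.05, against 10.5% of all genes. Myelin genes, 8 in number, summed to 2158 to 2276 FPKM in irradiated and 2324 to 2847 FPKM in control hippocampus. The part of these in the levels of the subfield genes was not tested. None of the 36 other subfield genes passed limma's test in hippocampus, and 2 were under an unadjusted p of 0.05, against 10.5% of all genes. Among these was the apoptosis regulator Bok, which was at 34.5 ± 0.86 FPKM with irradiation and 40.1 ± 2.72 FPKM without it. By field, the median log2 difference was 0.06 in 14 dentate, 0.13 in 8 CA1, -0.08 in 5 CA2 and -0.12 in 9 CA3 and mossy cell genes, against -0.01 over all genes.

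In prefrontal cortex 8 of the 10 genes passed the filter, since C1ql2 and Dsp had means below 1 FPKM. None passed limma's test or had an unadjusted p under 0.05, against 0.00786% and 7.23% of 12729 genes. The unadjusted count was 3 without irradiated prefrontal cortex 3, and 1 without irradiated prefrontal cortex 2, without control prefrontal cortex 1, with equal totals, with 1 fit over all 12 libraries or with the replicate number as a block. Over all genes the first of these settings had 874 of 12745, and the others had 825 to 1340 of 12720 to 12741. The main fit had 920 of 12729. The groups overlapped for all 10 genes, while 6.25% of all genes were higher and 7.44% lower without overlap. Pou3f1 came nearest, with 20.4 ± 2.03 FPKM after irradiation against 17.7 ± 1.32 FPKM in controls (SD, n = 3) and a log2 difference of 0.19 (-0.01 to 0.40, adjusted p = 0.707). Wfs1 was 41.1 ± 2.90 against 43.3 ± 5.43 FPKM, a difference of -0.07 (-0.29 to 0.15) that was 0.01 with equal library totals.

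The difference of the irradiation effect between hippocampus and prefrontal cortex passed limma's test for none of the 10 genes (0% of 12894 genes passed), and 1 of 10 had an unadjusted p under 0.05 (3.27% of all genes). That count was 0 without irradiated hippocampus 1 or 2 or irradiated prefrontal cortex 1. It was 2 or 3 without control hippocampus 1 or 2, irradiated hippocampus 3 or irradiated prefrontal cortex 2 or 3, and 3 with the replicate number as a block. Over all genes, settings with a count of 0 had 337 to 415, and settings with 2 or 3 had 323 to 734. The main fit had 422 of 12894. The gene of the main fit was Wfs1, with 0.37 ± 0.15 (95% interval 0.05 to 0.70, adjusted p = 0.9998). That of Spink8 was -0.50 ± 0.25 (-1.03 to 0.04) and that of Pou3f1 -0.26 ± 0.12 (-0.53 to 0.005). The estimates of the other 7 genes lay between -0.03 and 0.27.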

How the data were processed

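RNA of hippocampus and prefrontal cortex was extracted with Trizol and made into strand-marking libraries with a NEBNext Ultra II kit, per the labels' protocols. TopHat and mm10 are named, without versions, per the submitters' processing notes. The sources used here do not name the counting tool or annotation, or say whether counting used the strand. Each deposited table pairs a symbol with 1 value and names no unit. FPKM was taken as the unit of these deposited values. They are not whole, and multiplied by transcript length in kilobases they sum per library to 0.567 to 0.591 M (mega) with each gene's median transcript length and 1.2 to 1.25 M with its longest, near the 1 M of FPKM. Of 23183 symbols, 22148 (95.54%) matched GENCODE M21, used for mm10 positions and lengths. Depth was estimated from the smallest steps of 1309 genes below 0.3 FPKM, with 199 genes of a single transcript for the absolute level.

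The test was limma-trend (limma 3.58.1, R 4.3.3) on log2(FPKM + 1) of all genes whose mean over the libraries of a comparison reached 1 FPKM, two-sided, with Benjamini-Hochberg adjustment over these genes and a threshold of 0.05. Only the compared groups entered a fit, and all 12 libraries entered that of the difference of the irradiation effect between regions. The 10 genes and the lists of other genes were chosen with earlier results of these data known. All 10 genes were named, with up to 3 genes of smallest p per list, further listed genes given as values, and the nearest genes by pattern. Genes beyond that rule were named after their values were seen, and some genes of the lists are not reported here by name. By their titles, hippocampus and prefrontal cortex of 1 number and treatment belong to 1 mouse, and their deviations from the group means correlated at -0.006 to 0.29 in control and 0.174 to 0.3 in irradiated mice. Between treatments, numbers correlated at 0.117 to 0.141 in prefrontal cortex and at -0.16 to 0.103 in hippocampus. Alternatives were a pseudocount of 0.1, no filter, equal totals, 1 fit over all 12 libraries, the replicate block and leaving out each library.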

Additional observations from a re-analysis of the deposited data

How the results depend on the processing

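The counts of 9 genes higher in hippocampus in control mice held under all 11 alternatives, and those in irradiated mice were 9 or 10. The count of 0 held under every alternative for irradiation in each region and for the difference of the irradiation effect between regions. The replicate block changed no call, with counts of 9, 9, 0, 0 and 0. In hippocampus the number of genes at an unadjusted p under 0.05, 3 of 10, was 1 without control hippocampus 3, 2 without irradiated hippocampus 1 or control hippocampus 1, and 4 with equal totals. In prefrontal cortex it was 0 and reached 3 without irradiated prefrontal cortex 3. For the difference of the irradiation effect between regions it was 1 and ran from 0 to 3. Over all genes these numbers were 1361, 920 and 422. They ran over the alternatives from 580 to 1998, 671 to 1340 and 323 to 788. The dentate minus CA1 difference in hippocampus of 0.20 was 0.050 with summed values, because abundant genes weigh more in a sum, and 0.13 to 0.24 over the settings that leave out 1 library.

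Small differences changed sign, none of them past the threshold. With equal totals Pou3f1 in hippocampus was 0.015 and Cpne7 0.071, and in prefrontal cortex Wfs1 was 0.0061 and Zbtb20 0.0095. With a pseudocount of 0.1 the difference of the irradiation effect between regions was 0.030 for Fibcd1. Leaving out 1 library, the difference of Cpne7 in hippocampus ran from -0.073 to 0.028. In prefrontal cortex that of Prox1 ran from -0.067 to 0.048, Wfs1 from -0.13 to 0.030, Grp from -0.46 to 0.083, Cpne7 from -0.22 to 0.056 and Zbtb20 from -0.13 to 0.092. The difference of the irradiation effect between regions ran from -0.017 to 0.20 for C1ql2 and -0.12 to 0.070 for Fibcd1. It ran from -0.20 to 0.35 for Grp and -0.071 to 0.20 for Cpne7. The cause of these was not tested. Over all genes the calls for irradiation in hippocampus were 0 and reached 4 with equal totals. Those in prefrontal cortex were 1 and ran from 0 with all 12 libraries to 4 without control prefrontal cortex 1. Those of the difference of the irradiation effect between regions were 0 and reached 2 without control hippocampus 3. Some 12 to 31 fragments stood behind C1ql2 and 3 to 9 behind Dsp in prefrontal cortex, which limits their prefrontal values.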
